A study of Mus musculus with 12 samples.

Results

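Liver RNA of mice killed 12 h after bulaquine was set against liver RNA of vehicle-treated mice on 4 spotted 2-colour arrays, out of 12 arrays in a series that also sampled 6 h and 24 h. Each array set a bulaquine liver against a vehicle liver, each labelled with its own dye. On the arrays called F1 and F2 bulaquine was in Cy5, and on R1 and R2 it was in Cy3. The members of the comparison were the 14499 of 23040 spots whose background-corrected intensity was above 0 in both dyes on all 4 arrays. The labels give the animals as Mus musculus fed ad libitum and the vehicle only as a vehicle treatment, while strain, sex, age and dose are not given in the sources used here. They do not say whether F1 and R1 carried the same RNA or whether vehicle animals served several times, so p-values measure the spread between these arrays, which may be technical. Every value below is a log2 ratio of bulaquine over vehicle unless another quantity is named, and a spot is said to have risen or fallen only where its Benjamini-Hochberg adjusted p from limma was under 0.05 (a call).

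Bulaquine is an aminoquinoline antimalarial and a pro-drug of primaquine, used against the dormant liver forms of the parasite. Drugs of this class are known for oxidising hemoglobin and damaging red cells, and the liver is where they are activated and cleared. Hemoglobin is built from alpha and beta globin chains, which are made in red cell precursors and whose messenger RNA persists in young circulating red cells. The sample titles file the study under hepatotoxicity, and the comparison asks which liver transcripts differed at the middle of the sampled times.

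Gene names rest on an inferred order of the array's blocks. The 48 blocks were moved between row-wise and column-wise order of a grid of 12 by 4. Every statement by gene thus depends on that order, while counts of called spots do not. The direction taken was the one that puts Mt1 and the brighter Mt2 spot at spots set in advance. The names of those spots were thus fixed by that choice. On the 12 h arrays 10.0% to 24.5% of spots stood at 0 in either dye, the most on F2, and the median signal-to-noise score of a channel ran from 0.467 to 1.415. The median standard error (SE) of a log2 ratio was 0.27. The bulaquine ratios of 2 arrays correlated at 0.14 for F1 with F2 and 0.20 for R1 with R2, but at -0.11 to -0.16 for an F array with an R array. With the dye effect of each spot removed the F with R correlations were 0.10 to 0.15. Fitted ratios and SEs are net of that dye effect, so a small SE does not mean that all arrays had 1 sign. Different spots of 1 gene shared little: over 4525 pairs of spots from 2040 genes their ratios correlated at 0.011 and had the same sign in 51.2% of pairs, against 0.19 and 59.1% over 717 pairs in the brightest 30% of spots. Defining hepatocyte transcripts were bright under the inferred order, with Alb, Apoa1 and Ttr at the 99.96th, 98.6th and 98.2nd percentile of brightness.

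The promoters of the adult globin genes are shown because globin spots make up the largest annotated group of calls at 12 h. Each line gives the 120 bases before the gene's start, 5′ to 3′ on the gene's own strand, from RefSeq on build GRCm38.p6. Capitals mark the 3 motifs searched on both strands: the CACCC box, the CCAAT box (ATTGG when read on the other strand) and ATATAA as a TATA box. The pair of CCAAT matches that touch in Hbb-bt run together.
Hba-a1, chr11:32283552-32283671, plus strand: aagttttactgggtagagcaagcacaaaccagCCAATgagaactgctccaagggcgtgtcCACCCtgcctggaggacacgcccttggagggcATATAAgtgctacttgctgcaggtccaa
Hbb-bs, chr7:103827929-103828048, minus strand: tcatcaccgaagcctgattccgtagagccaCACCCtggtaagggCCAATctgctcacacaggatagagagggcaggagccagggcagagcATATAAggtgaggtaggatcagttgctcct
Hbb-bt, chr7:103813924-103814043, minus strand: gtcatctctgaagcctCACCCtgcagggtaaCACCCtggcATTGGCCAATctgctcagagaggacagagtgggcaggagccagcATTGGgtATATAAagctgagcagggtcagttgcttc
The promoter of the other adult alpha gene, Hba-a2, matched that of Hba-a1 in 297 of 297 bases at a shift of 3. The beta pair Hbb-bs and Hbb-bt matched in 168 of 299 bases (56.2%). All 4 windows held all 3 motifs, which stand together in 91 of 32544 RefSeq promoter windows of this length (0.28%). Singly, CACCC was in 31.8%, CCAAT in 21.2% and ATATAA in 4.47% of the windows. The alpha gene copies are near identical, and the array annotation names the alpha spots after both Hba-a1 and Hba-a2, so signal from the copies cannot be told apart. The array annotation names the beta spots Hbb-b1 and Hbb-b2. The beta promoters shown are those of Hbb-bs and Hbb-bt, and these names were not matched to the spots.

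Of the 14499 spots 46 were called at 12 h, or 0.317%, and nearly all lay on one side: 44 rose (0.303%) and 2 fell (0.0138%). The 44 that rose were 13 globin spots, 14 spots with 1 other gene symbol and 17 spots with no symbol in the annotation. At an unadjusted p under 0.05 the sides were closer, with 631 spots above 0 and 496 below, together 7.77% of those tested.

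**Figure D1:**
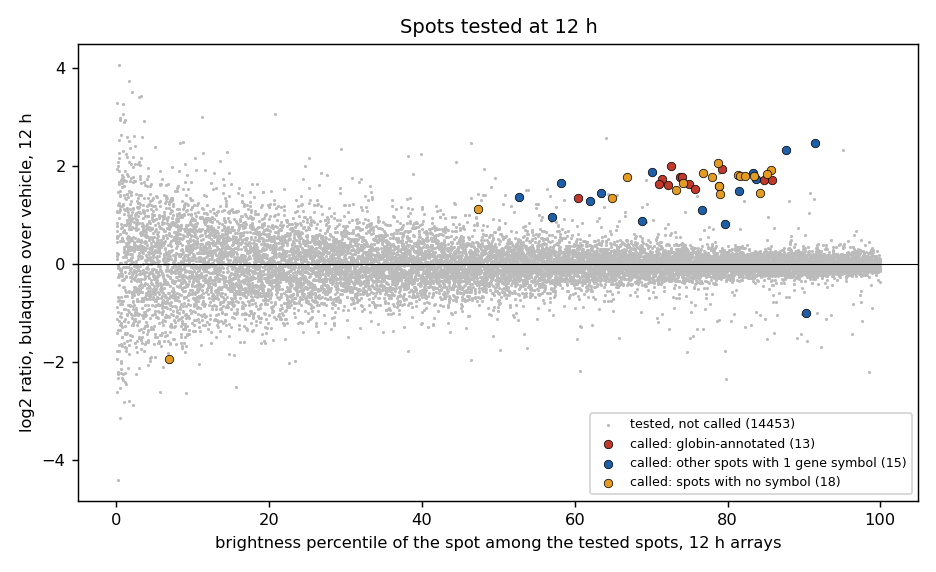
Log2 ratio of bulaquine over vehicle at 12 h (vertical) against the brightness percentile of each of the 14499 tested spots (horizontal), with called spots coloured by annotation. The 44 spots that rose lie in the middle and upper part of the brightness range, and the 2 that fell lie at -0.996 (Serpina6) and -1.94 (a spot with no symbol).

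Most alpha globin spots rose. The array holds 13 alpha spots, all measured, of which 13 were above 0, 12 were higher on all 4 arrays and 11 were called. Their fitted ratios ran from 0.42 to 2.01 with a median of 1.63, or 3.10-fold, and an SD over spots of 0.42. The alpha spot with the smallest p read 1.84 on F1, 1.75 on F2, 1.58 on R1 and 1.69 on R2, with a fitted ratio of 1.71 (SE 0.13, adjusted p = 0.000669, limma, n = 4 arrays of 12 h, spread estimated from all 12 arrays). Another read 1.61, 2.28, 1.79 and 2.13 on F1, F2, R1 and R2, and the one with the highest fitted ratio, 2.01, read 2.84, 2.02, 1.52 and 1.67. All 3 spots were high on every array. The 2 alpha spots that were not called read 1.04 (adjusted p = 0.20) and 0.42 (adjusted p = 0.37). The spot at 0.42 was the brightest alpha spot, at the 95.3rd percentile, and read 0.91 and 0.77 on the F arrays but -0.08 and 0.08 on the R arrays.

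Beta globin spots lay as high, with fewer calls. Of 8 beta spots on the array 5 were measured, all 5 above 0, with a median of 1.64 (3.12-fold) and a range of 0.32 to 1.86, and 2 were called. One of these read 1.27, 1.62, 1.95 and 2.08 on F1, F2, R1 and R2 (fitted 1.73, SE 0.17, adjusted p = 0.00221). The other read 1.06 and 0.39 on the F arrays and 2.58 and 2.52 on the R arrays (fitted 1.64, SE 0.20, adjusted p = 0.00601), so bulaquine was higher in both dye orientations but the size depended on it. The remaining 3 stood at 1.86 (SE 0.74), 1.54 (SE 0.30) and 0.32 (SE 0.29). The spot at 1.86 read 1.67, 1.44, 1.99 and 2.34 on F1, F2, R1 and R2. Its SE draws on all 12 arrays, and on those of 6 h the spot read -1.23, 4.43, 0.26 and 0.60. The embryonic alpha-like gene Hba-x had 1 spot, dim at the 15.6th percentile, which read -0.17, 0.08, -0.55 and 2.48 and was not called (0.46, SE 0.45).

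Over the 18 alpha and beta spots together the median was 1.68 on F1, 1.49 on F2, 1.56 on R1 and 1.62 on R2, so bulaquine liver was higher on each of the 4 arrays. By kind, the alpha medians were 1.84, 1.53, 1.54 and 1.57 and the beta medians 1.27, 1.03, 1.95 and 2.08, so the beta spots were higher with bulaquine in Cy3. In RNA of whole liver, more globin transcripts per cell and more globin-bearing cells in the tissue cannot be told apart. With normexp background correction the median was 0.69 and 0 of the 18 were called. The annotation of the alpha spots also lists the histone gene H3f3a. A spot with H3f3a alone read 0.06, and the 3 spots of the sister gene H3f3b stood at -0.02, 0.01 and 0.0004.

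Among the sampled times the globin ratios were highest at 12 h. The median of the 18 spots was -0.27 at 6 h, 1.64 at 12 h and 0.18 at 24 h, and 0 of the 18 were called at 6 h or 24 h. Tested directly, 10 of the 18 were higher at 12 h than at 6 h and 3 were higher at 12 h than at 24 h. Those tests called 0.262% and 0.138% of all spots, and the test against 24 h called 0 without F1, F2 or R2 of 12 h. By array, the medians of 6 h were -0.66 and -0.79 with bulaquine in Cy5 and 0.03 and 0.17 with bulaquine in Cy3, and those of 24 h were -0.37 and -0.12 with bulaquine in Cy5 and 0.47 and 0.69 with bulaquine in Cy3. The pooled medians of 12 h lay close together in both dye orientations.

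**Figure D2:**
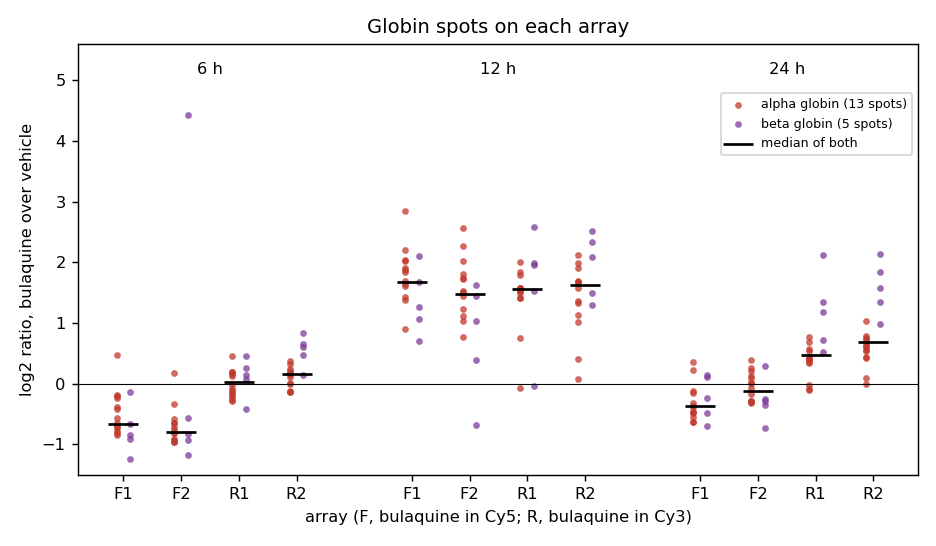
Log2 ratio of bulaquine over vehicle (vertical) for each measured alpha and beta globin spot on each array (horizontal) at 6 h, 12 h and 24 h, with the median of the 18 spots as a black bar. The 4 medians of 12 h lie between 1.49 and 1.68, and those of 6 h and 24 h between -0.79 and 0.69.

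For other red cell genes few spots were measured. Of 37 listed erythroid genes other than globins 11 were measured, 7 above 0 and 4 below with a median of 0.03, and 0 of their 18 spots were called or had an unadjusted p under 0.05. Over all 14499 spots those shares were 0.317% and 7.77%, so a list of this size holds few or no calls at the overall share, and counts of 0 here and below are not results about the lists. Bpgm, which makes the red cell metabolite bisphosphoglycerate, stood at 0.75 (SE 0.39), the transferrin receptor Tfrc at 0.27 (SE 0.14) and -0.32 (SE 0.76) on separate spots, and the mitochondrial iron carrier Slc25a37 at -0.85 (SE 0.68). Among the fixed red cell markers other than globins only Car2 (0.22, SE 0.40) and Bpgm were measured. Genes of heme synthesis, heme breakdown and iron handling split 11 above 0 and 7 below (median 0.03), with 0 of 28 spots called and 14.3% at an unadjusted p under 0.05. Within that list the iron exporter Slc40a1 read 0.50 (SE 0.17), the iron-oxidising plasma protein ceruloplasmin (Cp) 0.36 (SE 0.13) and the iron regulator Hfe 0.70 (SE 0.30). The rate-limiting enzyme of hepatic heme synthesis, Alas1, read -0.33 (SE 0.13) and heme oxygenase Hmox1 0.20 (SE 0.22). By array, Alas1 read -0.73 and -1.36 on the F arrays but 0.50 and 0.27 on the R arrays.

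By annotation, the 14 genes with 1 symbol that rose have varied roles. Only Tia1, Add3 and Gm1968 had a second tested spot. It stood at -0.16, -0.19 and -0.08 and was not called in any of them. The other genes rest on 1 spot each, with no further spot to set beside it. Of these 14, 9 lay in the stretch of within-block positions 60 to 284 that spans the globin spots, which held 48.4% of other tested spots. Position 60 is that of 1 beta spot that was not called, and the other measured alpha and beta spots lay at 222 to 284. Among the 9, Add3 and Fam131a were at positions that hold a globin spot in another block. The part of position in the calls of the 14 was not tested. By time, 12 of the 14 were highest at 12 h among the 3 times, an order favoured by their choice through a call at 12 h. Cetn2, a centrin of the centriole, read 1.66, 1.46, 1.83 and 1.996 on F1, F2, R1 and R2, 3.33-fold in the fit (1.74, SE 0.12, adjusted p = 0.000274). Phtf1, named as a putative homeodomain transcription factor, was the most even, at 1.92, 1.85, 1.81 and 1.92 (3.66-fold, SE of the log2 ratio 0.19, adjusted p = 0.00236). In both genes all 4 arrays were high and close together.

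Of genes that act on RNA, Larp7, which binds the 7SK RNA that restrains transcript elongation, read 1.09, 1.64, 1.54 and 1.57 (fitted 1.46, SE 0.14, adjusted p = 0.0018). Tia1, an RNA-binding protein of stress granules, read 1.48 and 1.39 on the F arrays and 2.32 and 2.38 on the R arrays (fitted 1.89, SE 0.22, adjusted p = 0.00568). A further Tia1 spot, however, stood at -0.16 (SE 0.10).

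Among genes of cell structure, Nup205, a scaffold protein of the nuclear pore, read 0.64, 1.43, 1.75 and 2.79 (fitted 1.65, SE 0.23, adjusted p = 0.0129). The membrane skeleton gene Add3 read 1.12, 1.23, 1.77 and 1.36 on one spot (fitted 1.37, SE 0.16, adjusted p = 0.00597) and -0.19 (SE 0.12) in the fit of its other spot. For both genes the lowest array was an F array. Leucine-rich repeat gene Lrrc41 had a fitted ratio of 1.49 (SE 0.19) and Fam131a of 1.29 (SE 0.20), each higher on 4 of 4 arrays with the highest value on R2.

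Among metabolic genes, Got2, the mitochondrial aspartate aminotransferase, read 0.32 and 0.43 on the F arrays against 2.02 and 1.66 on the R arrays (fitted 1.11, SE 0.12, adjusted p = 0.00268), the widest split by dye orientation of the 14. Ciao2b, of the machinery that inserts iron-sulfur clusters into cytosolic proteins, read 1.20, 0.80, 0.77 and 1.08 (fitted 0.96, SE 0.14, adjusted p = 0.0196). The galactosyltransferase gene B4galt4 stood at 0.89 (SE 0.12) and Keg1 at 0.82 (SE 0.10), the smallest of the 14. The largest were Gm1968, at 3.15, 3.07, 1.55 and 2.14 on F1, F2, R1 and R2 (fitted 2.48, SE 0.31, adjusted p = 0.0071), and Smad9, a transcription factor of bone morphogenetic protein signalling, at 3.05, 2.98, 1.44 and 1.85 (fitted 2.33, SE 0.38, adjusted p = 0.0462). In both the F arrays lay above the R arrays, and a second Gm1968 spot read -0.08 (SE 0.20).

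Calls kept in all 4 fits that left out 1 array of 12 h were those of Cetn2, Larp7, Phtf1, Got2 and Tia1. Add3 kept its call in 3 of the 4 and lost it without F1 (adjusted p = 0.0518). Gm1968, Nup205, Lrrc41 and Fam131a kept theirs only without R1 and Keg1 only without R2, while Ciao2b, B4galt4 and Smad9 lost theirs in all 4 fits. In a fit without the dye effect Cetn2, Phtf1, Larp7, Keg1 and Ciao2b stayed called, and Got2 (adjusted p = 0.974) and Tia1 (adjusted p = 0.60) were among the genes that did not. With the spots of a gene averaged first, Add3, Gm1968 and Tia1 were not called.

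**Figure D3:**
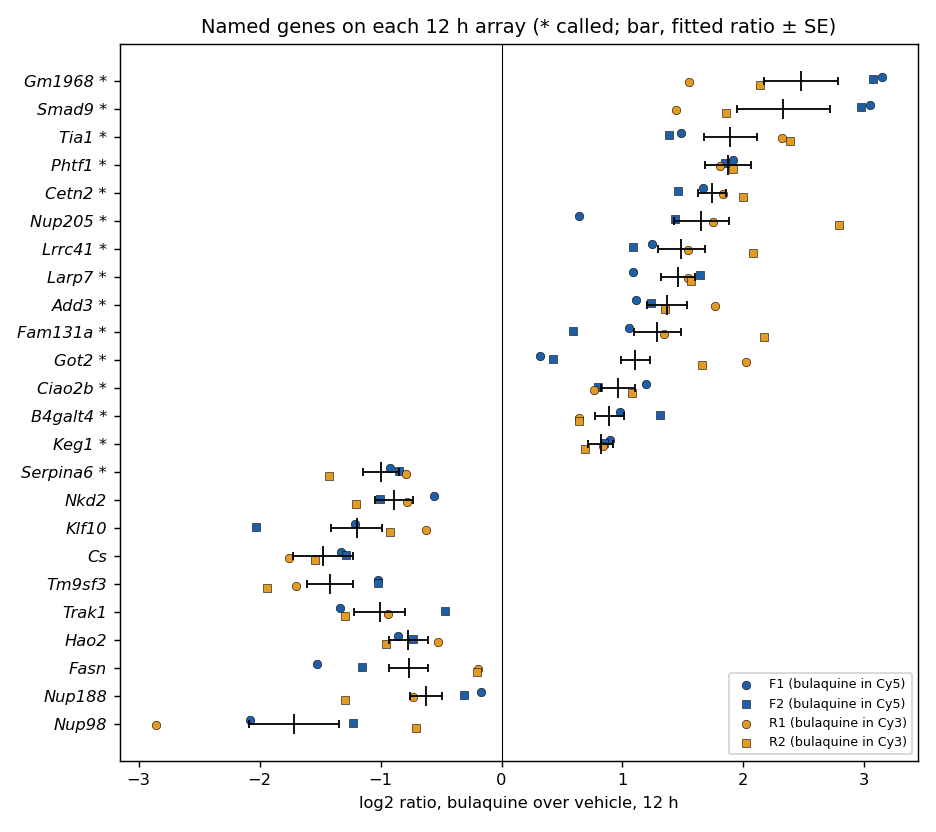
Log2 ratio of bulaquine over vehicle at 12 h (horizontal) on each of the 4 arrays for the 14 genes that rose, for Serpina6, which fell, and for the 9 uncalled genes of smallest p among those below 0 on all 4 arrays (vertical), with the fitted ratio and its SE as a black bar. Cetn2 and Phtf1 have closely spaced arrays, and Got2 and Nup205 spread from 0.32 to 2.02 and from 0.64 to 2.79.

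Of the 17 spots with no symbol that rose, the highest stood at 2.06 at 12 h and 2.11 at 24 h. At 24 h it was also called (adjusted p = 0.00496, limma). The 17 lay between 1.13 and 2.06 with a median of 1.79, and their medians at 6 h and 24 h were -0.33 and 0.19. For the 14 named genes those medians were -0.27 and 0.18, and for the 18 alpha and beta globin spots they were also -0.27 and 0.18. Of the 31 spots other than globins that rose, 24 (77.4%) lay in the stretch of within-block positions that spans the globin spots, against 48.4% of 14447 other tested spots. The 24 were 15 of the 17 with no symbol and 9 of the 14 named. Among the 31, 7 (22.6%) stood at 1 of the 13 within-block positions that hold globin spots in some block, against 3.03% of those other spots. A single within-block position held 5 of the 31, and the 44 spots that rose were spread over 26 of the 48 blocks. The part of print position in these calls was not tested.

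The 2 spots that fell were Serpina6 and a spot with no symbol. Serpina6 encodes corticosteroid-binding globulin, the plasma carrier of glucocorticoids, which is made in hepatocytes. It read -0.93 on F1, -0.85 on F2, -0.79 on R1 and -1.42 on R2, below 0 on all 4 arrays, and fell by 0.996 in the fit (SE 0.15, adjusted p = 0.0235), 1.99-fold. At 6 h it stood at -0.12 and at 24 h at -0.19. Its call was kept without R1 (adjusted p = 0.027) and lost without F1 (adjusted p = 0.163), F2 (0.151) or R2 (0.145). Over all 19 alternatives Serpina6 was called in 11, and it was also lost without the dye effect, with array weights, with normexp, with the 12 h arrays fitted alone and with dye-swap pairs averaged. The spot with no symbol fell by 1.94 (adjusted p = 0.0272) and was dim, at the 6.86th percentile of brightness.

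Another 9 genes below 0 on all 4 arrays had the smallest p-values on that side without passing the adjustment. The Wnt antagonist Nkd2 read -0.56, -1.003, -0.78 and -1.20 on F1, F2, R1 and R2 (fitted -0.89, SE 0.16, adjusted p = 0.0666). The zinc finger repressor Klf10 stood at -1.20 (SE 0.21), the kinesin adaptor Trak1 at -1.01 (SE 0.21) and the peroxisomal oxidase Hao2 at -0.77 (SE 0.16), with adjusted p-values of 0.0898, 0.145 and 0.159. For 3 others a second spot of the gene lay elsewhere. Citrate synthase (Cs) read -1.48 and 0.09, Tm9sf3 -1.42 and -0.07, and the nucleoporin gene Nup98 -1.72 and -0.47. The first spot of each was dim, at the 5.29th, 1.21st and 1.23rd percentile of brightness. Nup188, a further scaffold protein of the pore, read -0.63 (SE 0.13, adjusted p = 0.169), opposite in sign to Nup205.

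Fasn, the fatty acid synthase, was the ninth of these, with 3 spots at -0.77 (SE 0.16, adjusted p = 0.16), -0.63 (SE 0.23) and -0.57 (SE 0.29). Its best spot read -1.53 and -1.15 on the F arrays and -0.19 and -0.20 on the R arrays. The lipogenesis and lipoprotein list around it had 16 of 21 measured genes below 0, with a median of -0.13. The list's median was about the same at the other times, -0.14 at 6 h and -0.15 at 24 h. By array of 12 h it was -0.31 on F1, -0.40 on F2, 0.03 on R1 and -0.15 on R2. Over all 6741 genes 3324 lay above 0 and 3417 below, with a median of -0.01. None of its 35 spots was called (limma), and for 9 of them (25.7%) the unadjusted p was under 0.05. The fatty acid desaturases Fads1 and Scd1 stood at -0.65 (SE 0.15) and -0.41 (SE 0.14), and the best of 6 spots of the elongase Elovl6 at -0.89 (SE 0.21), with its other spots between -1.96 and 0.22. By array, Fads1 read -1.32 and -1.56 on the F arrays but 0.15 and 0.12 on the R arrays. The lipid transfer gene Mttp stood at 0.35 on one spot and -0.24 on another. Apoa1 read -1.11 on F1 and -9.79 on F2 but 0.98 and 1.09 on the R arrays, and its fitted -2.20 had an SE of 1.16. In cholesterol synthesis and uptake 8 of 15 genes lay above 0, with Hmgcs1, the enzyme before HMG-CoA reductase, at 0.42 (SE 0.17) and Insig1, a brake on the pathway, at -0.31 (SE 0.12). Insig1 read 0.31 and 0.03 on the F arrays but -0.63 and -0.97 on the R arrays. The list had 0 called spots.

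Glucocorticoid-responsive liver genes had the highest share of small p-values of the pathway lists. Of 28 listed genes 11 were measured, 7 above 0 and 4 below, with a median of 0.27. Of their 14 spots 1 was called, Serpina6, and 9 (64.3%) had an unadjusted p under 0.05. The list and the metallothioneins were chosen with earlier results of these arrays known, so the count describes and supports nothing on its own. The metal-binding protein gene Mt2 read 0.42, 0.93, 0.74 and 0.62 on F1, F2, R1 and R2 on its brighter spot (fitted 0.68, SE 0.15, adjusted p = 0.18) and had a fitted 0.38 (SE 0.13, adjusted p = 0.546) on the other. Mt1 read 0.95 and 0.79 on the F arrays but 0.06 and -0.0007 on the R arrays (fitted 0.45, SE 0.12, adjusted p = 0.36). The gluconeogenic gene Pck1 read -0.93 and -0.998 on the F arrays and 1.78 and 1.79 on the R arrays (fitted 0.41, SE 0.11, adjusted p = 0.389), so its sign followed the dye orientation. Tdo2, the first enzyme of tryptophan breakdown, stood at 0.27 (SE 0.11), and the kinase gene Sgk1 at 0.75 (SE 0.30) on a dim spot.

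The acute phase list had 7 of 8 measured genes above 0, with 0 of 9 spots called and 4 at an unadjusted p under 0.05. Its median, 0.39, was the highest of the pathway lists with 4 or more measured genes. Its members include Alb (0.08), Ttr (-0.06) and the transcription factor Stat3, so the count mixes genes of different kinds. The fibrinogen chain gene Fga read 0.81, 0.77, 0.34 and 0.44 on F1, F2, R1 and R2 (fitted 0.59, SE 0.11, adjusted p = 0.087). The endotoxin-binding protein gene Lbp stood at 0.48 (SE 0.17), and Stat3 at 1.07 (SE 0.44) and 0.17 (SE 0.11) on separate spots. The Stat3 spot at 1.07, at the 25.9th percentile of brightness, read 2.18 and 1.98 on the F arrays but -0.02 and 0.15 on the R arrays. In complement and coagulation 8 of 13 genes lay below 0 (median -0.12), with 0 of 15 spots at an unadjusted p under 0.05. Major secreted proteins of hepatocytes split 3 above and 5 below.

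In drug metabolism, with 0 calls, phase I genes of oxidation, reduction and hydrolysis lay 6 above and 10 below 0, with the monoamine oxidase Maob at -0.67 (SE 0.20). In phase II 8 of 11 genes lay above 0 and 6 of 18 spots (33.3%) had an unadjusted p under 0.05, against 7.58% over all spots with 1 symbol. The glutathione transferase gene Gstm4 read 0.97, 0.91, 0.51 and 0.50 on F1, F2, R1 and R2 (fitted 0.72, SE 0.18, adjusted p = 0.274). Gstm2 stood at 0.40 (SE 0.14) on its best spot, with -0.36 and -0.25 on the F arrays against 1.14 and 1.06 on the R arrays. The methyltransferase gene Tpmt stood at -0.29 (SE 0.11). Antioxidant and Nrf2 target genes split 12 above and 8 below (median 0.05), with 1 of 32 spots at an unadjusted p under 0.05, a dim Gclm spot at -0.66 (SE 0.25).

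Among stress, repair and immune lists, with 0 calls against 0.317% over all spots, heat shock proteins and chaperones lay 16 above and 10 below 0, with the chaperonin subunit Cct3 at 0.63 (SE 0.17) on the best of 7 spots and Dnajb1 at 0.50 (SE 0.17). That Cct3 spot read -0.36 and 0.06 on the F arrays against 1.15 and 1.66 on the R arrays. In the unfolded protein response list, Ppp1r15a, a phosphatase subunit that restarts translation, read -0.71, -1.48, -0.97 and -1.54 on the 4 arrays (fitted -1.18, SE 0.32, adjusted p = 0.364). The p53 and apoptosis list had 0 of 22 spots at an unadjusted p under 0.05. Interferon-stimulated genes, with 20 measured, lay 13 above and 7 below and their median was -0.38 at 6 h, 0.03 at 12 h and 0.18 at 24 h. Among clock genes 8 of 12 lay below 0. The smallest p was that of the repressor Ciart at -0.81 (SE 0.14, adjusted p = 0.0645), which read 0.27 and -0.38 on the F arrays and -1.69 and -1.43 on the R arrays.

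Energy metabolism lists stood near 0. Respiratory chain genes split 27 above and 23 below (median 0.01) with 1 of 69 spots at an unadjusted p under 0.05, and fatty acid oxidation and peroxisome genes split 16 and 16, with Acadvl, of the first step of mitochondrial oxidation, at 0.71 (SE 0.17, adjusted p = 0.236). Amino acid and urea cycle genes had 1 call among 42 spots, that of Got2. Lists of RNA and protein handling also had medians near 0. Splicing factors lay 28 above and 14 below (median 0.08) with 1 of 92 spots called, that of Tia1, and Prpf31 next at 0.88 (SE 0.16, adjusted p = 0.0837) on one of 3 spots. Cytosolic ribosomal proteins lay 39 above and 20 below (median 0.03), with 1 of 142 spots at an unadjusted p under 0.05. Lysosome and autophagy genes lay 22 above and 9 below (median 0.09), with the protease gene Ctsc at 0.55 (SE 0.19) on its best spot and -0.69 on another. Cytoskeleton genes lay 12 above and 21 below (median -0.06), with the fitted ratios of all 8 Actb spots between -0.53 and -0.04. Every Actb spot had readings of both signs across the arrays, and the adjusted p-values ran from 0.64 to 0.95 (limma). For example, an Actb spot read -0.57 and -0.68 on the F arrays but 0.25 and 0.24 on the R arrays. Another read 0.05 and 0.42 on the F arrays but -0.50 and -0.56 on the R arrays.

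**Figure D4:**
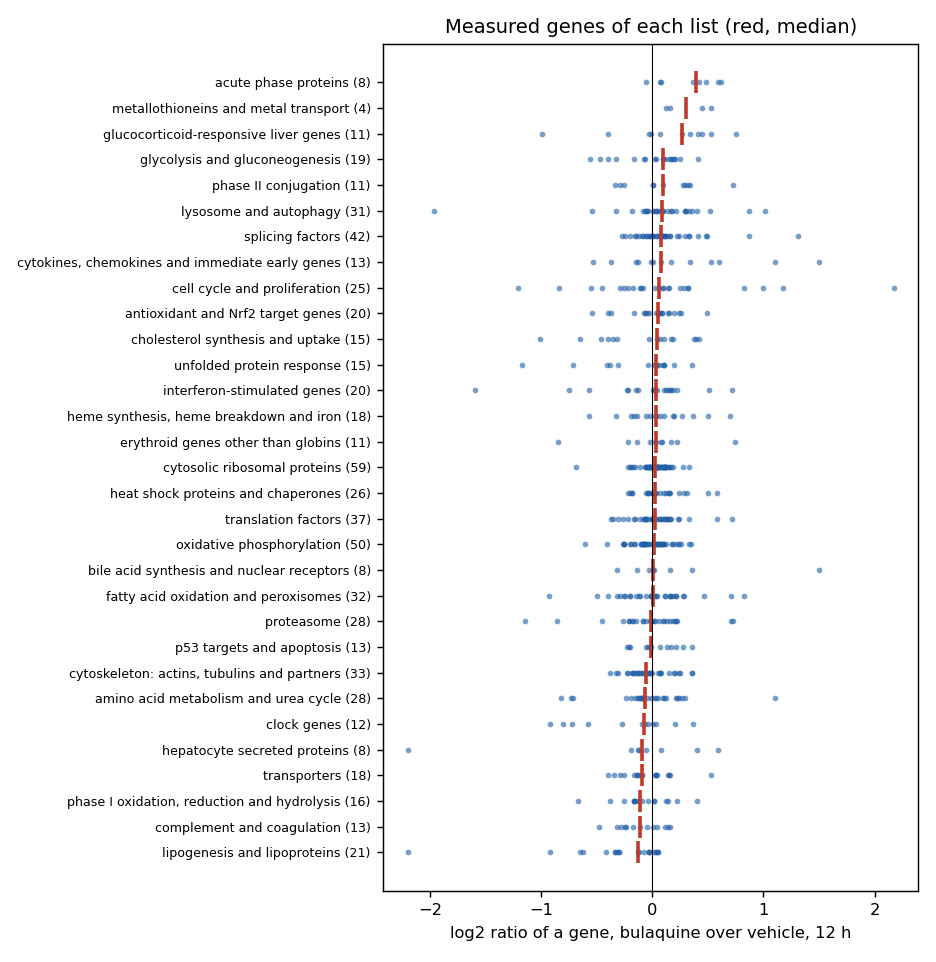
Log2 ratio of bulaquine over vehicle at 12 h (horizontal) for every measured gene of each pathway list with 4 or more measured genes (vertical, number of genes in brackets), 1 point a gene, with the list's median as a red bar. Medians run from -0.13 for lipogenesis and lipoproteins to 0.39 for acute phase proteins, and that of all 6741 genes is -0.01.

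Few markers of liver cell types were measured, and 0 of them were called, against 0.317% over all spots. Hepatocyte markers had 5 of 14 measured, 1 above and 4 below 0 (median -0.13), with Alb at 0.08 (SE 0.14), Ttr at -0.06 (SE 0.13), Ass1 at -0.13 (SE 0.25), Trf at -0.03 (SE 0.18) and -0.35 (SE 0.19) on separate spots, and Apoa1 at the -2.20 given above. By array, the hepatocyte median was -0.86 and -1.25 on the F arrays but 0.70 and 0.88 on the R arrays. Kupffer cell and macrophage markers lay 1 above and 4 below 0 (median -0.07), with Lyz2 at -0.32 (SE 0.23) and Csf1r at -0.20 (SE 0.29). Sinusoidal endothelial markers lay 0 above and 4 below (median -0.15). Stellate cell markers lay 6 above and 3 below 0 (median 0.11), with Col3a1 at -1.25 (SE 0.34, adjusted p = 0.395, limma) on a dim spot. The best Col1a2 spot stood at 0.70 (SE 0.29), with 2.09 and 1.17 on the F arrays but -0.26 and -0.21 on the R arrays. Neutrophil markers lay 4 above and 1 below 0 (median 0.06), with Ltf at 0.34 (SE 0.13) and 0.13 (SE 0.16) on separate spots and S100a9 at -0.47 (SE 0.20). For T and NK cells and for bile duct cells 2 markers each were measured, for B cells, fat and muscle 1 each, and for pancreas 0.

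The direct test of 12 h against 6 h called 38 of 14497 spots (0.262%), 37 of them higher at 12 h. Among these, 32 were also called at 12 h itself and 10 were globin spots. The tests between times and the test at 12 h share the 12 h arrays, so such overlaps are in part built in. Cetn2 stood at 1.74 at 12 h and -0.36 at 6 h, a difference of 2.09 (SE 0.16, adjusted p = 0.0014). Differences of 2.24 for Tia1 (SE 0.31), 1.86 for Lrrc41 (SE 0.27), 1.84 for Phtf1 (SE 0.27), 1.73 for Larp7 (SE 0.20) and 1.48 for Add3 (SE 0.23) were also called. The 1 spot lower at 12 h was that of Mt2, at 0.68 at 12 h and 2.07 at 6 h, a difference of -1.39 (SE 0.21, adjusted p = 0.0302).

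The test of 12 h against 24 h called 20 of 14492 spots (0.138%), 12 higher and 8 lower at 12 h, of which 11 were also called at 12 h. The genes with 1 symbol among them were Cetn2, Usp31 and Arhgef12. Cetn2 stood at 1.74 at 12 h and 0.18 at 24 h (difference 1.56, SE 0.16, adjusted p = 0.0156). The deubiquitinase gene Usp31 stood at 1.24 at 12 h and -1.12 at 24 h (difference 2.36, SE 0.30, adjusted p = 0.0356), and it had read 2.44 and 2.20 on the F arrays of 12 h but 0.10 and 0.22 on the R arrays. Arhgef12 stood at -0.14 at 12 h and 1.02 at 24 h (difference -1.16, SE 0.16, adjusted p = 0.0356). This test called 0 spots without F1, F2 or R2 of 12 h, with 1116, 1039 and 1135 spots at an unadjusted p under 0.05, and 7 without R1. Gm1968 and Smad9 stood at -0.02 and -0.31 at 6 h, 2.48 and 2.33 at 12 h, and 2.77 and 2.74 at 24 h, where both were also called against vehicle (adjusted p = 0.00569 and 0.0206). Their differences of 12 h minus 24 h, -0.29 (SE 0.44) and -0.41 (SE 0.54), were not called (adjusted p = 0.866 and 0.845).

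**Figure D5:**
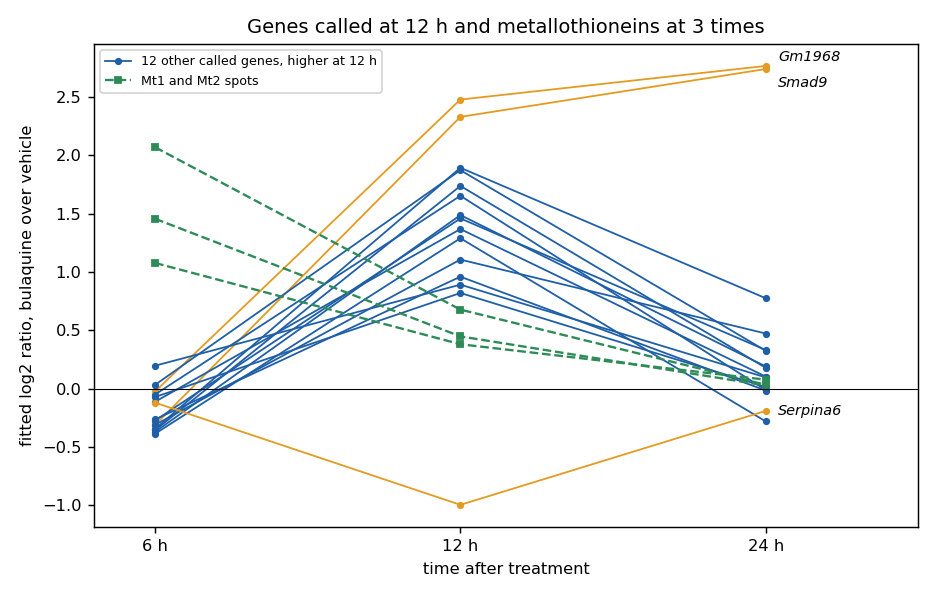
Fitted log2 ratio of bulaquine over vehicle (vertical) at 6 h, 12 h and 24 h (horizontal) for the 15 named genes called at 12 h and for the 3 Mt1 and Mt2 spots. Blue lines, the 12 other genes that rose, are highest at 12 h, the dashed metallothionein lines start between 1.08 and 2.07 at 6 h, and Gm1968 and Smad9 stand at 2.77 and 2.74 at 24 h. The 15 genes were chosen by their call at 12 h, which favours a large ratio at that time.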

How the data were processed

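Arrays were scanned with ImageQuant v5.0 and spots read with ArrayVision v8.0, per the series' design text. The deposited intensity columns hold foreground, background and corrected intensity per dye, the last equal to foreground minus background within 0.001 and 0 where background was higher. ArrayVision's signal-to-noise score was deposited per dye with no formula given. The authors' deposited log2 ratio table, LOWESS-normalized in Avadis v4 per the design text, is log2 of Cy5 over Cy3 with swapped arrays unturned. Its medians ran from -0.014 to 0.036 and it correlated at 0.998 to 1.000 with the ratios computed here.

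From the corrected intensities, spots at 0 in either dye were set missing, log2 ratios were normalized by global loess, and limma 3.58.1 (R 4.3.3) fitted all 12 arrays with 1 column per time, signed by dye orientation, and a dye effect per spot, which was called for 3292 spots. All 12 arrays shared 1 estimate of spread. Of the tested spots 9728 had 1 symbol, 155 several and 4616 none, and 14956 symbols of the array were found in the RefSeq table of GRCm38.p6, with 0 updated. The genes and lists were chosen with earlier results of these data known. Named genes were up to 15 called in each direction with 1 sign on 4 arrays, filled to 10 by p, then up to 4 per list, all globin, Mt1 and Mt2 spots, and up to 6 per time difference. A gene in a list takes the median over its spots, and a list has no test. Same-numbered arrays deviated together by -0.36 to -0.19 and differently numbered ones by -0.33 to -0.22, so the numbers were not used as pairs. Spots called used an adjusted p under 0.05. The script was checked on simulated data. Alternatives are given in the closing section.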

Additional observations from a re-analysis of the deposited data

Results flagged for a closer look

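In 6 of 165 named spots tested 1 array of 12 h stood apart by Dixon's gap over range, a test that by chance marks about 1 in 20. F2 stood apart for Esrra (0.904, reading 5.59 against -0.07 to 0.47), Sqstm1 (0.868, reading -4.34 against -0.21 to 0.41), Myc (0.845, reading 3.69 against 0.60 to 1.08) and Maob (0.832, reading -1.59 against -0.48 to -0.25). F1 stood apart for Gclc (0.874) and R1 for Clock (0.878).

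Among the 38 spots called for 12 h minus 6 h, the genes named in the text differed by Tia1 2.24, Cetn2 2.09, Lrrc41 1.86, Phtf1 1.84, Larp7 1.73, Add3 1.48, Got2 1.42, Ciao2b 1.22 and Mt2 -1.39. Among the 20 spots called for 12 h minus 24 h, the 3 with 1 symbol differed by Usp31 2.36, Cetn2 1.56 and Arhgef12 -1.16.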

How the results depend on the processing

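The 46 spots called at 12 h became 78 on foreground intensities (45 of the 46 among them), 0 with normexp (109 at an unadjusted p under 0.05), 0 with the 12 h arrays fitted alone (936), 26 without the dye effect, and, with the spots of a gene averaged, a choice made after seeing the data, 11. The 38 that differed between 12 h and 6 h became 65 on foreground, 6 with normexp, 11 without the dye effect and 3 with spots averaged. The 20 that differed between 12 h and 24 h became 88 on foreground, 0 with normexp (1381 unadjusted), 40 without the dimmest 30% of spots, 6 with spots over 0 on at least 3 arrays, 0 without the dye effect (700 unadjusted) and 1 with spots averaged. With same-numbered arrays as a random replicate block the 3 counts were 67, 53 and 38. With a replicate block by averaging dye-swap pairs they were 0, 0 and 0 (1147, 1024 and 1214 unadjusted), and the numbers are not known to pair the samples. Leaving out 1 array of 12 h gave 32 to 44, 19 to 26 and 0 to 7. The authors' deposited log2 ratios gave 46, 38 and 20. The globin median ran from 0.69 (normexp) to 1.76. Of named gene ratios, 397 kept sign and side of the threshold, 96 lost and 10 gained a call, and Tm9sf3 changed sign on foreground (0.033). Of list medians, 682 moved by less than their spread and 20 by more. The cause of these changes was not tested. SDs of the log2 ratio over spots were 0.832 to 1.29 on the 12 h arrays, against 0.0694 to 0.423 with normexp. Spots at 0, up to 24.5% on F2, limit what could be tested.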
